A study of Homo sapiens with 13 samples.

Results

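Ribosome biogenesis and nucleolar factor genes were examined for loci of DNA-RNA hybrid signal in U2OS cells, a human osteosarcoma line. The 37 genes were chosen by name, as factors of rRNA transcription, of small nucleolar ribonucleoproteins (snoRNPs) or of ribosomal subunit assembly, out of 19970 protein-coding genes on chromosomes 1 to 22 and X. Hybrids had been mapped by DRIP-seq, in which the S9.6 antibody pulls hybrid-bearing fragments from sonicated DNA by immunoprecipitation (IP). Cells carried an siRNA against REXO4 (siREXO4), an siRNA against RNaseH1 (siRNaseH1) or a control siRNA (siCtrl), and all were labelled WT in genotype. Each transfection had 3 S9.6 IP libraries and 1 input, and siCtrl cells also had 1 IgG library. Neither siRNA dose nor time after transfection is stated in the labels. RNaseH1 degrades the RNA strand of a DNA-RNA hybrid, and REXO4 belongs to a family of predicted exonucleases. The series design asks whether they act on hybrids in the same regions.

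Peaks were called by the authors on the 3 IP libraries of each transfection after merging them, so there is 1 list per transfection, no value has a replicate error and no test between transfections was possible. On the chromosomes analysed the lists held 12687 siREXO4, 20954 siRNaseH1 and 4458 siCtrl peaks, each called a locus here. Fold enrichment is the authors' value at a peak's summit over local background. It is used within its own list only, except for a fold limit set across the lists as a check on the processing. A percentile gives the share of the peaks of that list with a lower fold. Read depth is not given. The number of fragments under each summit, worked out from its fold and its p-value, shows how much sequence a value rests on. At the 37 genes it was 10 to 109 in siREXO4 (median 20), 9 to 187 in siRNaseH1 (median 18) and 11 to 35 in siCtrl (median 14.5). The targeted gene REXO4 held no locus in any list, and RNASEH1 held 1 siREXO4, 3 siRNaseH1 and 0 siCtrl loci. Peaks do not measure RNA or protein, so these numbers do not check the knockdowns.

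Ribosomes are built in the nucleolus, where RNA polymerase I transcribes the rRNA precursor, snoRNPs guide its modification, and assembly factors, helicases and nucleases turn it into the subunits. The genes of these factors are themselves transcribed by RNA polymerase II, lie on many chromosomes and are highly expressed in growing cells. They are classical targets of the transcription factor MYC, which binds the E-box CACGTG. R-loops, a DNA-RNA hybrid with a displaced DNA strand, form during transcription, often near gene starts and where the displaced strand is rich in G.

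The sequences around the starts of 6 of these genes are shown because a peak of both knockdown lists overlapped each of them, and FBL also lay under a siCtrl peak. They are the first 6 of 8 such windows by the lower of the fold percentiles of those peaks, and the windows of NCL and POLR1C, with no E-box, are not printed. They come from RefSeq (GRCh38.p14), in which 30 of the 37 genes matched a promoter entry. The 8 windows were 26.7% of these 30, against 11.7% of the windows of 15812 protein-coding genes. Each runs from 250 bases before to 50 bases after the annotated start on the coding strand, in lower case. Capitals mark each E-box CACGTG, which reads the same on the opposite strand, and each run of 4 or more G on the coding strand.
ISG20L2 (chr1:156728717-156729016, minus strand): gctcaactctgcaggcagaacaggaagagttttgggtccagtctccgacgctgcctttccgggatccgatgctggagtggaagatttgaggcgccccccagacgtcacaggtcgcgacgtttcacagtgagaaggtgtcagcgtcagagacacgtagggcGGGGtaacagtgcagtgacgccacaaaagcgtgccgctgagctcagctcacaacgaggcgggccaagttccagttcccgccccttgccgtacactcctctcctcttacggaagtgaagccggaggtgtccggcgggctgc
NOP10 (chr15:34343087-34343386, minus strand): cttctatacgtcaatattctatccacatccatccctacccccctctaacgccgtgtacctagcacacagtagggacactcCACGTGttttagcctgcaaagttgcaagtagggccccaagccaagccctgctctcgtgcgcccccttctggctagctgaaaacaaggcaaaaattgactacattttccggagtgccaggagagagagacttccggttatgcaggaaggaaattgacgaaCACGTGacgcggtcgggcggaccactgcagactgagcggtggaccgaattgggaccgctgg
GNL3 (chr3:52685670-52685969, plus strand): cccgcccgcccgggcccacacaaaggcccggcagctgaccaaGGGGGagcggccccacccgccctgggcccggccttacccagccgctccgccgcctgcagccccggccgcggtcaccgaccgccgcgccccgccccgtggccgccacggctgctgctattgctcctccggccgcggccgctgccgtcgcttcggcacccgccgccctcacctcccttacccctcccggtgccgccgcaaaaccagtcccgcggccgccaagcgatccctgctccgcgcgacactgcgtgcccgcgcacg
PES1 (chr22:30591861-30592160, minus strand): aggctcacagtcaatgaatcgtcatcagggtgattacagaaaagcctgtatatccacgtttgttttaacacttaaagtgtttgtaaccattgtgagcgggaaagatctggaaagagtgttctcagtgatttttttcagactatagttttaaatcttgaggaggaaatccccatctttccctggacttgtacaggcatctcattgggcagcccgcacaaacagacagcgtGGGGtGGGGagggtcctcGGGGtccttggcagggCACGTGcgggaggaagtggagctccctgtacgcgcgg
NOP2 (chr12:6568242-6568541, minus strand): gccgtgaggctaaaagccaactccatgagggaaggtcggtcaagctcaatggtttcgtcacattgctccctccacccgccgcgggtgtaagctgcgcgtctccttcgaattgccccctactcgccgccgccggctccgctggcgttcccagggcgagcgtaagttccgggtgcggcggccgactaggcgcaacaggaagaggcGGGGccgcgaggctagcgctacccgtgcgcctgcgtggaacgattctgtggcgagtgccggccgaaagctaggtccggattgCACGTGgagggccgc
FBL (chr19:39846330-39846629, minus strand): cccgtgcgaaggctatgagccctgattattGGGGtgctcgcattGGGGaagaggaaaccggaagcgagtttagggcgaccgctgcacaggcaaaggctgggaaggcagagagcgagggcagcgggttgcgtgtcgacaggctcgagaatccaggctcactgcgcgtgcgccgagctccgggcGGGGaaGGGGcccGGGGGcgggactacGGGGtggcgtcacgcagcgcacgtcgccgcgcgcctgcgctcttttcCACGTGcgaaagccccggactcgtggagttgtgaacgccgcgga

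NOP10 held 2 E-boxes, which began 170 and 11 bases before the start. In PES1, NOP2 and FBL the single E-box began 13, 35 and 6 bases after the start. ISG20L2 and GNL3 held none in this window. CACGTG was found in 8 of the 30 matched windows, those of FBL, NOP10, NOP14, NOP2, PES1, RRP9, UTP14A and UTP20, which is 26.7%, against 8.82% of the windows of 15812 protein-coding genes. Of the 8 member windows that both knockdowns overlapped, 4 held it, against 11.6% of the 1853 such windows of all genes. Of the other 22 member windows, 4 held it (18.2%), against 8.45% of the other windows of all genes. A G run was found in 23 of the 30 windows (76.7%), against 80.6% of all windows. Median GC content was 60.8% in the members' windows and 62.7% in all, and the median GC skew, (G − C)/(G + C), was 0.00449 and 0.00813. The FBL window had 6 G runs, the most of the 6 shown, and GNL3 the strongest skew towards C, at -0.28. A letter match is not a measured binding site.

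A knockdown locus counted as gained if it shared not even 1 bp with a siCtrl peak. A gene held a locus if the locus reached its span or the 2 kb on either side. A siREXO4 gained locus was held by 18 of the 37 genes, against 31.3% of all protein-coding genes. A siRNaseH1 gained locus was held by 35 of the 37, against 37.6%. Loci gained in both, where gained loci of the 2 knockdowns shared 1 bp or more, were held by 15 genes, against 20.8%. A siCtrl locus was held by 9 genes, against 12.0%. Counting every locus, gained or not, 21 genes held a siREXO4 locus (background 33.7%) and 35 a siRNaseH1 locus (39.2%). The shares of the members were thus 48.6%, 94.6%, 40.5% and 24.3% for siREXO4 gained, siRNaseH1 gained, gained in both and siCtrl, each above that of all genes. Expression was not measured here.

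**Figure D1:**
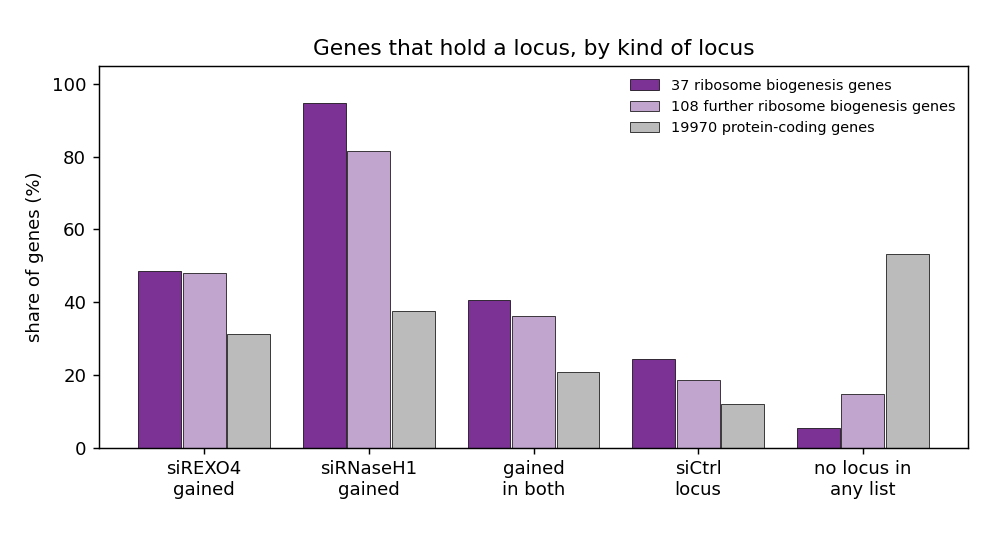
Share of genes (%, y axis) with each kind of locus (x axis), for the 37 ribosome biogenesis genes (dark bars), 108 further ribosome biogenesis genes (light bars) and 19970 protein-coding genes (grey bars). The 37 genes reach 94.6% for siRNaseH1 gained loci against 37.6% of all genes, and 48.6% for siREXO4 gained loci against 31.3%.

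All 18 genes with a siREXO4 gained locus also held a siRNaseH1 gained locus, which nearly follows from 35 of the 37 holding one. A siREXO4 gained locus alone was thus held by 0 members, against 6.25% of all genes, a background in which far fewer genes hold a siRNaseH1 gained locus. The other 17 of the 35 held a siRNaseH1 gained locus alone, against 12.6% of all genes. In UTP14A, RRP9 and DDX47 both kinds occurred but at different positions. POLR1A, which encodes the catalytic subunit of RNA polymerase I, and NOP16, a large-subunit assembly factor, held no locus in any list, as did 53.3% of all genes.

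Some loci could not be given to 1 gene. Of the 33 siREXO4 loci, 13 (39.4%) also overlapped another protein-coding gene or its 2 kb flanks, against 16.1% of the siREXO4 loci at all genes. Of 121 siRNaseH1 loci 25 did (20.7%, against 12.6%), and of 14 siCtrl loci 1 (7.14%, against 10.3%). Without such loci 8 members held a siREXO4 gained locus, which is 21.6%, against 22.5% of all genes, and 5 a locus gained in both (13.5%, against 13.6%). These shares were at the background. Any siREXO4 locus, gained or not, was then held by 12 members (32.4%, against 24.3%). The siRNaseH1 gained count was then 29, or 78.4%, against 29.2%.

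List length also differs between the transfections. With every list cut down to 4458 peaks, those with the lowest p-values, 10 members held a siREXO4 gained locus (27.0%, against 15.6% of all genes), 17 a siRNaseH1 gained locus (45.9%, against 14.2%) and 7 a locus gained in both (18.9%, against 8.98%). The counts were also read within classes of gene length. Of 11 members under 10 kb, 6 held a siREXO4 gained locus (20.2% of all genes of that size) and 10 a siRNaseH1 gained locus (22.9%). Of 13 members of 10 to 30 kb, 8 and 13 did (30.6% and 38.3%). Of 13 members of 30 kb or more, 4 did for siREXO4 (38.9%), near the background, and 12 for siRNaseH1 (46.6%).

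**Figure D2:**
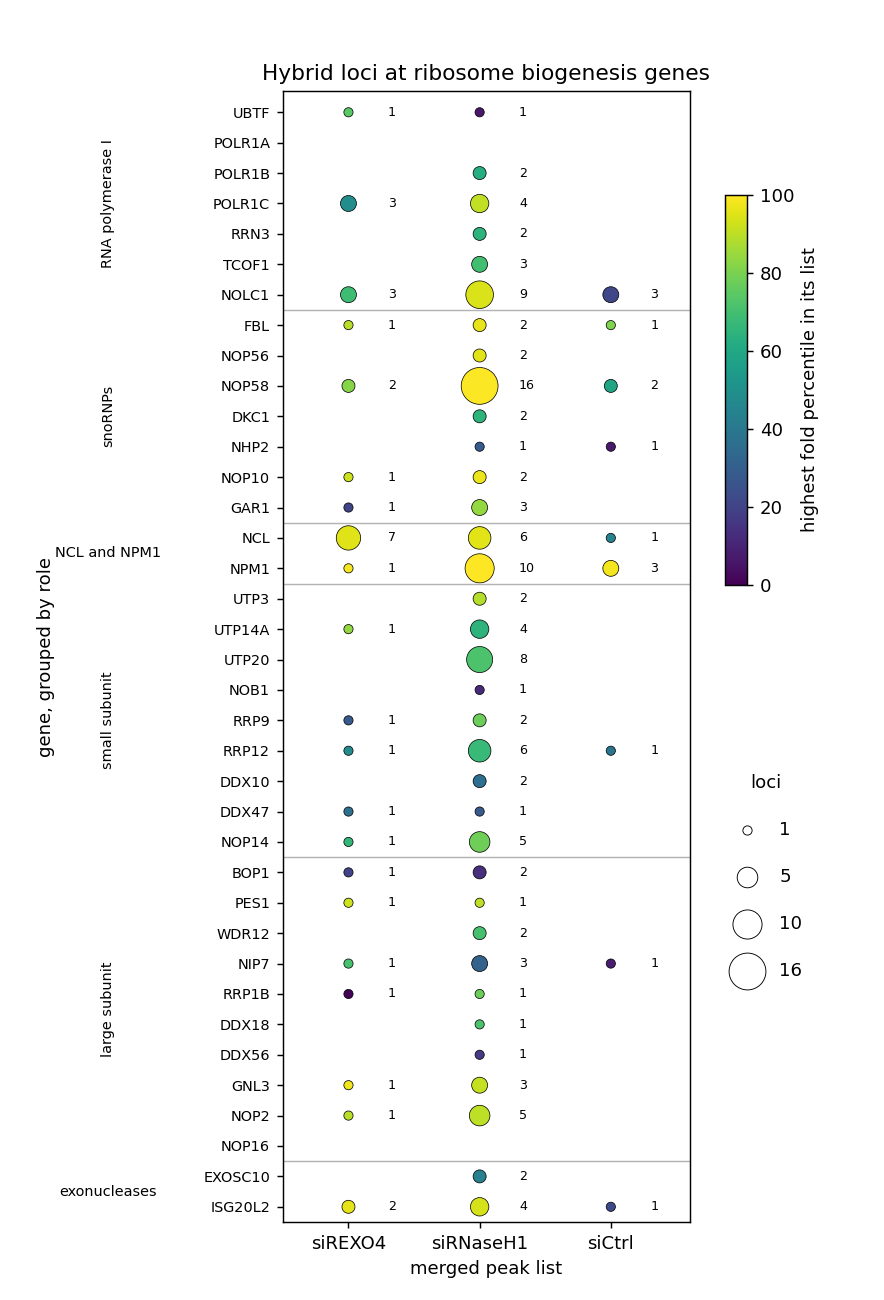
Loci at each of the 37 genes (rows, grouped by role) in the siREXO4, siRNaseH1 and siCtrl lists (columns). Circle area and the printed number give the number of loci, and colour gives the highest fold percentile of the gene within that list. NOP58 has 16 siRNaseH1 loci, NCL is the gene with most siREXO4 loci (7), and POLR1A and NOP16 have none.

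The members held 33 siREXO4 loci, or 0.89 per gene against 0.56 over all protein-coding genes. They held 121 siRNaseH1 loci, or 3.27 per gene against 1.00, and 14 siCtrl loci, or 0.38 against 0.16. At least 2 siRNaseH1 loci were held by 27 members, against 22.0% of all genes, and at least 4 by 11, against 8.27%. At least 2 siREXO4 loci were held by 5 members, against 12.3%. The median fold of the members' loci was 5.85 in siREXO4 (4.98 for loci at all protein-coding genes), 5.21 in siRNaseH1 (5.19) and 4.39 in siCtrl (4.83). The members thus stood out in the number of siRNaseH1 loci and hardly in their fold. Median widths were 464, 453 and 415 bp for siREXO4, siRNaseH1 and siCtrl loci, against 399, 398 and 339 bp at all genes.

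The position of the summits differed between the lists. Among the 30 genes with an annotated start, 16 of 25 siREXO4 loci (64.0%) had their summit within 2 kb of a start, against 43.7% of the siREXO4 loci of all such genes. Of 83 siRNaseH1 loci, 21 (25.3%) did, against 26.6%, and of 8 siCtrl loci 3 did (37.5%, against 23.3%). The median distance from summit to start was 398 bp for siREXO4, 7659 bp for siRNaseH1 and 5436 bp for siCtrl loci, against 4643, 10788 and 15648 bp for the loci of all such genes, where siREXO4 loci were also the nearest. Counted by gene, with the nearer gene boundary in place of the start for the 7 genes without one, 19 members had a siREXO4 summit within 2 kb (background 21.8%), 23 a siRNaseH1 summit (23.3%) and 5 a siCtrl summit (3.54%). Of the 15 members with a locus gained in both, 14 had it there (93.3%), and the exception was RRP12. Of the 4155 protein-coding genes with such a locus, 71.0% did. Among the 14 members, only UBTF, GAR1, NCL and PES1 had it at a locus that no other gene or its flanks shared. Of all 33 siREXO4 loci of the members, 13 were shared. No position share without the shared loci is given here. Over 2 kb away lay 84 of the 110 siRNaseH1 gained loci, in 29 genes, and 8 of the 25 siREXO4 gained loci, in 5 genes. The same was not counted over all genes, so these numbers do not set the members apart.

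**Figure D3:**
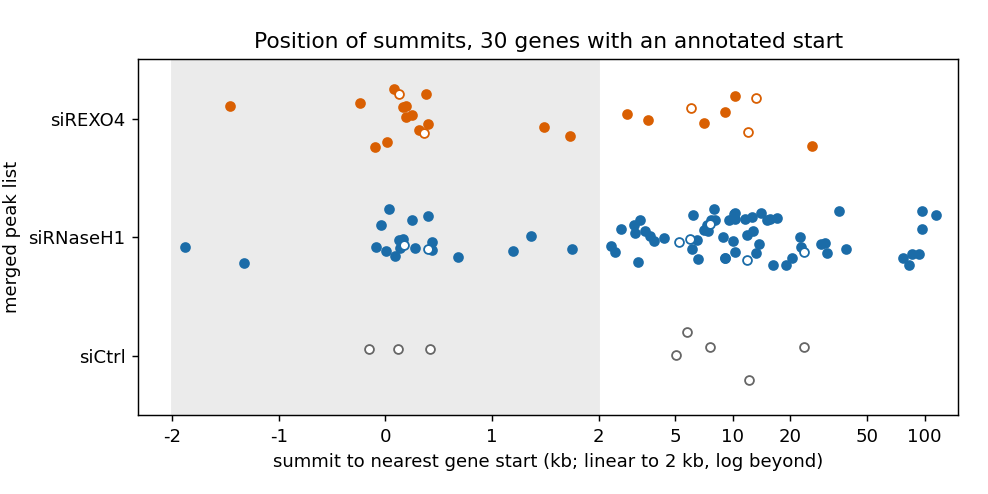
Distance from each summit to the nearest annotated gene start (x axis, kb, linear to 2 kb and logarithmic beyond) for the loci of 30 genes in each list (rows, with vertical scatter for legibility). Filled points are gained loci, open points are not, and the grey band marks 2 kb either side of the start. Of the siREXO4 summits 16 of 25 fall in the band, of the siRNaseH1 summits 21 of 83.

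Of the 7 genes of RNA polymerase I transcription, 3 held siREXO4 gained loci (31.3% of all genes) and 6 held siRNaseH1 gained loci (37.6%). UBTF, the factor that binds rDNA and recruits the polymerase, had 1 siREXO4 locus of fold 6.19 (18 fragments, 95% Poisson interval 10.7 to 28.4) and 1 siRNaseH1 locus of 3.44 (21 fragments), at summits 382 and 435 bp after a start. The fold stood at the 74.0th percentile of the siREXO4 list and the 6.16th of the siRNaseH1 list, and the local background was 2.07 and 5.40 fragments. POLR1C, a subunit shared with RNA polymerase III, had 3 loci gained in both, with siREXO4 folds of 3.33, 4.93 and 4.34 and siRNaseH1 folds of 4.05, 5.14 and 9.60 at the matching positions, and a further siRNaseH1 locus of 6.94. These loci also fall to YIPF3 or XPO5. POLR1B, RRN3 and TCOF1 held siRNaseH1 gained loci only, with highest folds of 5.70, 5.94 and 6.17. Those of RRN3, a polymerase I initiation factor, also fall to PDXDC1, and 4 RRN3 pseudogenes in the gene table make them uncertain. NOLC1, a chaperone of snoRNPs, held 3 siREXO4, 9 siRNaseH1 and 3 siCtrl loci. Its only locus gained in both, of 4.32 in siREXO4 and 5.76 in siRNaseH1, lay in its flank and is shared with PPRC1. The highest siRNaseH1 fold of NOLC1 was 12.0, at an 1800 bp peak inside the gene that 2 siCtrl peaks of 3.31 and 4.16 overlapped. A siRNaseH1 locus of 10.6 in its flank also overlapped a siCtrl peak, of 3.97, so the highest folds of NOLC1 stood at loci that do not count as gained.

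All 7 snoRNP protein genes held a siRNaseH1 gained locus (37.6% of all genes), and 2 of them, NOP10 and GAR1, a siREXO4 gained locus (31.3%). NOP10, a small subunit of the H/ACA pseudouridylation complex, had a locus gained in both at its start on chromosome 15, shared with NUTM1. Its fold was 11.0 in siREXO4 (38 fragments, 26.9 to 52.2, 92.3th percentile) and 16.8 in siRNaseH1 (52 fragments, 38.8 to 68.2, 97.0th percentile), and no siCtrl peak was called there. GAR1 of the same complex had 4.07 and 5.22 at its start. In siRNaseH1 alone GAR1 also had gained loci of 5.38 inside the gene and, beyond its end and shared with RRH, 7.65. DKC1, its pseudouridine synthase, had siRNaseH1 gained loci of 4.32 and, shared with MPP1, 5.94, and no other locus. NHP2 had a siRNaseH1 gained locus of 4.36 and, beside it, a siCtrl locus of 3.71 that neither knockdown list overlapped.

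Of the box C/D genes, FBL and NOP58 had a siCtrl locus near the start or boundary and NOP56 had none. FBL, the rRNA methyltransferase fibrillarin, had folds of 9.14 in siREXO4, 14.9 in siRNaseH1 and 5.77 in siCtrl at its start, with 34, 64 and 15 fragments. Because siCtrl held a peak, this strong locus counts as not gained, and only a siRNaseH1 locus of 4.05 inside the gene does. NOP56 had siRNaseH1 gained loci of 4.32 at its start and 13.8 at 1199 bp after it, and none in siREXO4 or siCtrl. NOP58 had folds of 7.12 in siREXO4 (52 fragments), 36.2 in siRNaseH1 (133 fragments, 111 to 158) and 5.03 in siCtrl (18 fragments) at summits 222, 288 and 247 bp from the lower boundary of its span. Only NPM1, of the 37 genes, had a higher siRNaseH1 fold.

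NOP58 on chromosome 2 (202265763 to 202303661) held 16 siRNaseH1 loci, a number that 21 of all protein-coding genes reached (0.105%). Of them 14 were gained, spread over the gene, with folds of 3.20 to 12.3. The siREXO4 and siCtrl lists held 2 loci each, at the same 2 positions. The 14 gained loci rested on 10 to 28 fragments each.

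**Figure D4:**
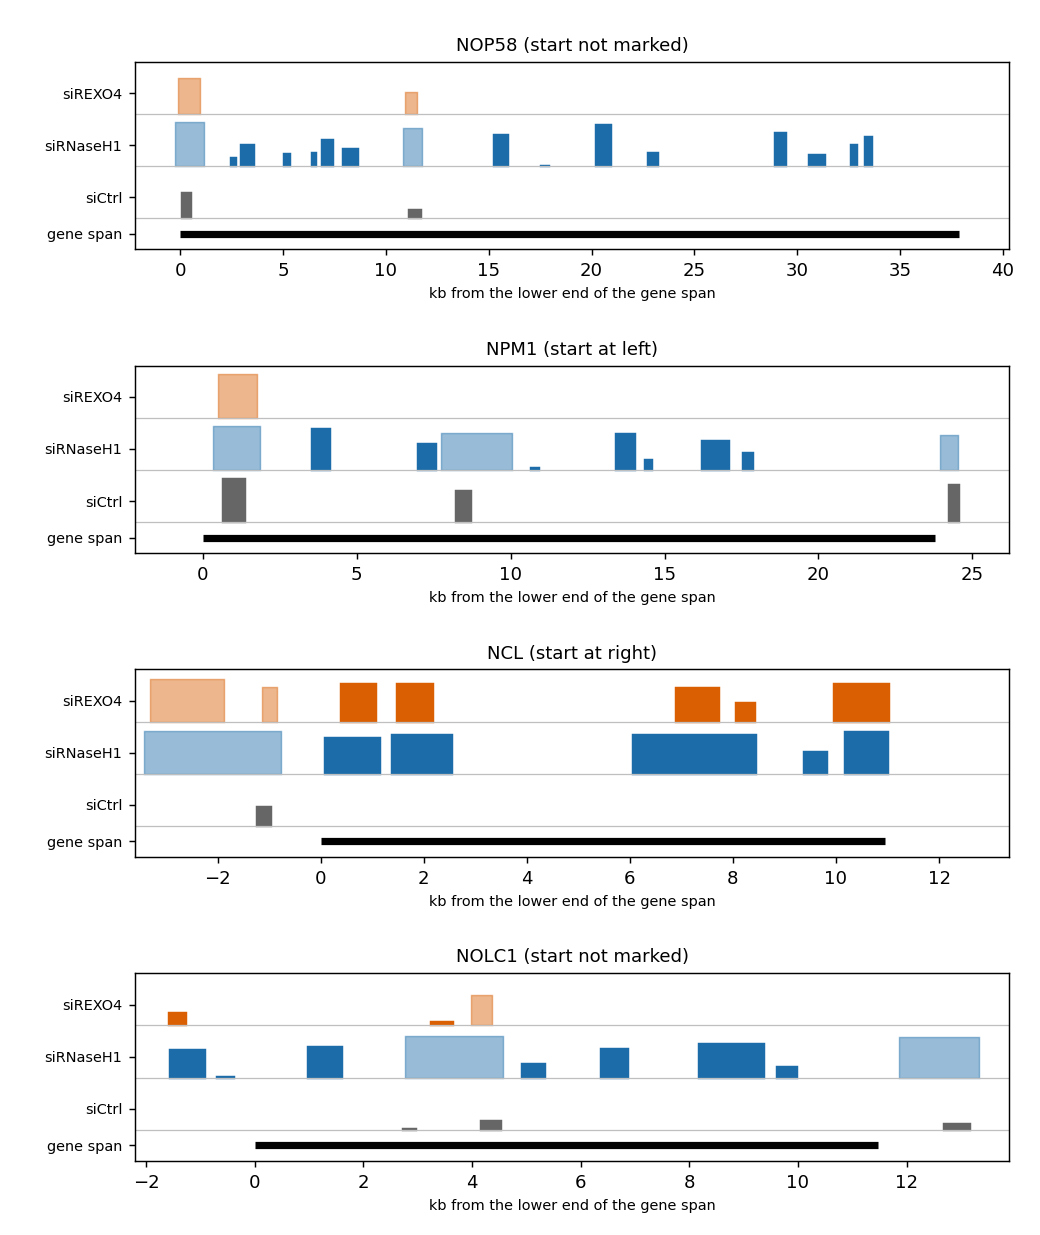
Loci along NOP58, NPM1, NCL and NOLC1 in the siREXO4, siRNaseH1 and siCtrl lists, on an axis of kb from the lower end of the gene span (black bar). Box width is the width of the locus, box height its fold percentile within its own list, and pale boxes are knockdown loci that a siCtrl peak overlapped. NOP58 and NPM1 show siRNaseH1 loci along the gene, and NCL shows loci of both knockdowns at matching positions (a siCtrl peak over 2 kb from NCL is not drawn).

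NPM1 and NCL encode nucleophosmin and nucleolin, the most abundant nucleolar proteins. NPM1 had the highest fold of the 37 genes in every list, at a locus on chromosome 5 with summits 364, 402 and 415 bp after an annotated start in siREXO4, siRNaseH1 and siCtrl. It was 24.4 in siREXO4 (109 fragments, 89.5 to 131, 98.5th percentile), 48.5 in siRNaseH1 (187 fragments, 161 to 216, 99.6th percentile) and 11.2 in siCtrl (35 fragments, 24.4 to 48.7, 98.4th percentile). The position was thus within the top 2% of each list, and no locus gained in siREXO4 was found in the gene. The siRNaseH1 list held 9 more loci along the gene, 7 of them gained, with folds of 3.51 to 13.1 among the gained ones, while siREXO4 held none of these and siCtrl 2. The gene table names 50 NPM1 pseudogenes, and how multiply mapped reads were treated is not given in the sources used here, so NPM1 values are uncertain.

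NCL was the member with the most siREXO4 loci, 7, a number that 73 of all protein-coding genes reached (0.366%). It held 6 siRNaseH1 loci and 1 siCtrl locus. The 5 siREXO4 gained loci had folds of 8.70, 8.70, 6.53, 4.77 and 8.43 from the gene's end to its start, and all 5 overlapped siRNaseH1 gained loci, of 7.52, 8.92, 9.19 and 13.5, since 1 wide siRNaseH1 locus of 2419 bp spanned 2 of them. Beyond the end of the gene, 1 siRNaseH1 locus of 2658 bp and fold 13.3 spanned 2 siREXO4 loci, of 13.8 and 6.54. The 13.8 was above that list's gained loci in NCL, but the siRNaseH1 summit lay within the siREXO4 locus of 6.54. None of these loci is gained. A siCtrl peak of 4.77 within the 2 kb flank overlapped the siREXO4 locus of 6.54. Another, of 7.81 at 2041 bp from the gene, overlapped that of 13.8. A siRNaseH1 locus of 5.21 inside the gene was gained in siRNaseH1 only.

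The 9 small-subunit factors all held a siRNaseH1 gained locus, 5 held a siREXO4 gained locus and 2, RRP12 and NOP14, a locus gained in both. The shares of all genes were 37.6%, 31.3% and 20.8%. NOP14, a component of the small-subunit processome, had folds of 5.61 in siREXO4 and 6.14 in siRNaseH1 at its start, where GRK4 also lies within 2 kb, and 4 more siRNaseH1 loci of 3.32 to 6.91 inside the gene. RRP12, a subunit export and assembly factor, had 4.86 and 5.95 at a locus gained in both, 8561 and 8433 bp from the nearer end of its span, 5 more siRNaseH1 loci of 3.84 to 4.60, and a siCtrl locus of 4.56 that neither knockdown list overlapped. UTP20, a large scaffold of the processome, held 8 siRNaseH1 gained loci of 3.24 to 6.36 and none in siREXO4 or siCtrl, all at 16.3 kb or more from its start. UTP14A held 4 siRNaseH1 loci of 4.96 to 5.94 inside the gene and a siREXO4 locus of 7.47 in its downstream flank. RRP9, a protein of the U3 snoRNP, had a siREXO4 locus of 4.25 before its start, shared with PARP3, and siRNaseH1 loci of 5.30 and 6.84 beyond its end. UTP3 had siRNaseH1 loci of 8.96 and 4.96 beyond its end. The helicase genes DDX10 and DDX47 had highest siRNaseH1 folds of 4.67 and 4.34, DDX47 also had a siREXO4 locus of 4.57, and NOB1, the endonuclease that trims small-subunit rRNA, 3.78. In this group only NOP14 had a siRNaseH1 summit within 2 kb of its start, against 23.3% of all genes.

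Of the 10 large-subunit factors, 6 held a locus gained in both (20.8% of all genes), each near a start or boundary. A siRNaseH1 gained locus was held by 9 (37.6% of all genes). Only the locus gained in both of PES1 was not shared with another gene. GNL3, which encodes the nucleolar GTPase nucleostemin, had folds of 20.8 in siREXO4 (60 fragments, 45.8 to 77.2, 97.9th percentile) and 10.0 in siRNaseH1 (36 fragments, 25.2 to 49.8, 91.2th percentile), at summits 99 and 91 bp before its start, inside the sequence printed above. PBRM1, which begins next to it, shares the locus. This was the highest siREXO4 gained fold of the 37 genes. PES1, of the complex with BOP1 and WDR12 that processes the large-subunit rRNA, had 11.1 in siREXO4 and 9.51 in siRNaseH1, at 193 and 128 bp after a start that lies inside its annotated span. BOP1 itself had 4.06 and 3.06 at a locus shared with HSF1, at percentiles 19.8 and 2.32 of their lists. WDR12 had siRNaseH1 loci of 6.26 (shared with ICA1L) and 4.59 only. NOP2, an rRNA cytosine methyltransferase, had 9.41 and 9.38 at summits 165 and 169 bp after its start, in loci of 1352 bp each that CHD4 shares. NIP7 had 5.85 and 4.55 at its start, shared with COG8, and a siCtrl locus of 3.73 in its far flank. RRP1B had 2.88 and 6.86, shared with HSF2BP, at percentiles 0.583 and 77.7 of their lists. The helicase genes DDX18 and DDX56 had siRNaseH1 loci of 6.36 and 4.03 only, that of DDX56 shared with TMED4. Near the starts of GNL3 and NOP2 the summits of the knockdown lists thus stood almost at the same base. Elsewhere at these genes siRNaseH1 alone had further gained loci. Their folds were 4.34 and 8.59 at GNL3, and 4.94, 3.62, 4.54 and 4.96 at NOP2.

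Both exonuclease genes held siRNaseH1 gained loci, against 37.6% of all genes. ISG20L2, an exonuclease of large-subunit rRNA processing, had folds of 15.0 in siREXO4 (42 fragments, 30.3 to 56.8, 95.7th percentile) and 11.4 in siRNaseH1 (39 fragments, 27.7 to 53.3, 93.4th percentile), 19 and 10 bp after a start, in a locus shared with METTL25B. Ranked by the worse of the 2 percentiles, it came first among the members with a locus gained in both, followed by NOP10, GNL3, PES1 and NOP2. ISG20L2 also held loci of 3.76, 10.2 and 4.22 in siREXO4, siRNaseH1 and siCtrl near its end, 5.8 to 6.1 kb from the start. In siRNaseH1 alone it had gained loci of 10.2 beyond its end and 4.96 inside the gene. EXOSC10, the nuclease of the nuclear RNA exosome, had siRNaseH1 loci of 4.94 and 4.59 inside the gene and none in siREXO4 or siCtrl.

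The 14 siCtrl loci of these genes lay in 9 of them. The siREXO4 list overlapped 7 of the 14 (50.0%, against 41.7% of all siCtrl loci) and the siRNaseH1 list 12 (85.7%, against 46.3%). The 2 in neither were those of NHP2 and RRP12. The counts depend on where the flank ends. Just inside the 2 kb were the siREXO4 loci of UTP14A (1994 bp from the gene, fold 7.47) and NCL (1868 bp, 13.8), and just outside were the siCtrl locus of NCL given above and siREXO4 and siRNaseH1 loci of DDX18 (2135 and 2139 bp, 5.88 and 5.94).

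A wider list of 108 further ribosome biogenesis genes, chosen with earlier results of these data known, was counted in the same way. A siREXO4 gained locus was held by 52 (48.1%), a siRNaseH1 gained locus by 88 (81.5%), a locus gained in both by 39 (36.1%) and a siCtrl locus by 20 (18.5%), against 31.3%, 37.6%, 20.8% and 12.0% of all genes. Without loci shared with another gene, the first 3 of these counts were 29 (26.9%, against 22.5% of all genes), 72 (66.7%, against 29.2%) and 18 (16.7%, against 13.6%). A siREXO4 gained locus without a siRNaseH1 gained locus was held by 3 (2.78%, against 6.25% of all genes). No locus in any list was held by 16 (14.8%, against 53.3%). By role, siREXO4 and siRNaseH1 gained loci were held by 3 and 5 of 10 polymerase I genes, 4 and 6 of 8 snoRNP assembly genes, 20 and 33 of 39 small-subunit genes, 17 and 31 of 36 large-subunit genes, and 8 and 13 of 15 exosome and exonuclease genes. The leading loci gained in both lay near a start or boundary, except those of WDR74 and, in siRNaseH1, RUVBL1. BYSL, a small-subunit factor, had 9.24 in siREXO4 and 28.8 in siRNaseH1, GTPBP4, a large-subunit GTPase, 14.9 and 13.6, DDX49 10.2 and 10.5, POLR1D, a subunit shared by polymerases I and III, 10.3 and 11.1, and TAF1B, of the polymerase I factor SL1, 7.29 and 6.41. WDR74 had 18.6 and 17.0 in its flank, at a locus that STX5 and TEX54 share. Of the exosome subunit genes, EXOSC8 had 6.28 and 7.30 and EXOSC7 5.13 and 6.02. Other genes shared most of these loci: MED20 that of BYSL, LARP4B that of GTPBP4, COPE that of DDX49, LNX2 that of POLR1D, ALG5 that of EXOSC8 and ZDHHC3 that of EXOSC7. RUVBL1 and RUVBL2, helicases of snoRNP assembly, had highest folds of 9.40 and 7.18 in siREXO4 and 12.4 and 4.80 in siRNaseH1, those of RUVBL2 at a locus shared with GYS1. The 12.4 of RUVBL1 stood 57.9 kb from its start, at a locus shared with SEC61A1, where siREXO4 had 6.16. The siREXO4 9.40 of RUVBL1 stood near a start, where siRNaseH1 had a gained locus of 9.61.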

How the data were processed

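Peaks were called on IP libraries merged per transfection, per the labels and the deposited peak names. Tools named without roles, per the submitters' processing notes, were MACS2 2.1.0.20150731, deepTools 3.5.1, SAMtools 1.17, HISAT2 2.2.1, Trim Galore 0.6.10 and Cufflinks, with the hg38 build. The notes used here do not say which control each call had. The deposited lists hold a fold enrichment (a ratio), a −log10 p, a −log10 q and a score of 10 times the −log10 q, not used further, all from the authors' caller. Inputs and IgG were not analysed here.

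Gene spans came from RefSeq (GRCh38.p14, the coordinates of hg38), matched by symbol for all 37 members, and starts from its promoter table, which holds 30. TCOF1, NOLC1, NOP58, RRP12, BOP1, RRP1B and DDX18 were taken by their boundaries. For genes with several starts the nearest was used, and the outermost for the printed windows. Fragments at a summit were recovered as the whole number that gives the fold and the Poisson p within 0.001 in −log10 p. Their 95% intervals cover counting error only. Code was tested on simulated data. Matplotlib 3.10.9, SciPy 1.17.1, pandas 2.3.3 and NumPy 2.4.6 were run under Python 3.11.15. Named were the members with a siCtrl locus, a locus gained in both, 4 or more loci in a list, among the 6 highest folds of a gained set or with none in a list, and per role 2 genes of the wider list. Members, lists and rules were chosen with earlier results of these data known.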

Additional observations from a re-analysis of the deposited data

How the results depend on the processing

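No replicate could be left out and no test run, because each list merges the replicates. No paired analysis was possible because the deposited lists carry no replicate numbers. Of 73 counts under another setting, 54 were within 1.5 times the count given. The other 19 were all lower. At equal list length, 10 members held a siREXO4 gained locus, 17 a siRNaseH1 gained one and 7 one gained in both. Any siRNaseH1 locus was held by 18 (48.6%, against 16.9% of all genes). Of the wider list, 28, 34 and 20 genes held loci gained in siREXO4, in siRNaseH1 and in both. These were 25.9%, 31.5% and 18.5%, against 15.6%, 14.2% and 8.98% of all genes. A siREXO4 or siRNaseH1 summit near a start was found in 12 and 15 members, with no share over all genes at this setting. With fold at least 5 in every list, 11 members held a siREXO4 gained locus (29.7%, against 19.9% of all genes). A locus gained in both was held by 8 (21.6%, against 13.1%) and a siCtrl locus by 3 (8.11%, against 5.67%). Of the wider list, 34 genes held a siREXO4 gained locus (31.5%, against 19.9%). A siREXO4 summit near a start was found in 12 members, with no share over all genes at this setting. This limit sets 1 fold across the lists and cuts the siCtrl list too. The NOLC1 siREXO4 locus of 5.80 then counts as gained, since its siCtrl peak of 4.16 is removed. Without loci shared with another gene, 12 members held a siREXO4 locus, 8 one gained in siREXO4 and 5 one gained in both knockdowns, and 29 and 18 wider-list genes held the last 2 kinds. These settings remove loci from the lists by construction. The flank, a 1 kb window at the start, the −log10 q limit of 2, the overlap rule and, chosen after seeing the data, leaving out NPM1 and RRN3 moved no count by over 1.5 times. Read depth is not given, and the weakest loci of the members rest on 10 fragments in siREXO4, 9 in siRNaseH1 and 11 in siCtrl, so a locus missing from a list is not shown to lack hybrids. Each value is a pooled one, so no difference between transfections has an error.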

Other observations

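Several of the genes host small nucleolar RNAs, the guide RNAs of the snoRNPs, in their introns, which was looked at after the values of the loci were seen. The gene table places 20 snoRNA genes inside 6 of the 37 genes (NOP56, NOP58, GNL3, NCL, DKC1 and UTP20). A siREXO4 locus overlapped 1 of them, a siRNaseH1 locus 3 and a siCtrl locus 0, against 0.806%, 3.06% and 0.161% of the 620 snoRNA genes inside protein-coding genes. The overlapped ones were SNORD82 in NCL in both knockdown lists, and SNORA75 in NCL and SNORD69 in GNL3 in the siRNaseH1 list. None of the 4 snoRNA genes in NOP58 lay under any of its 16 siRNaseH1 loci, and none of the 5 in NOP56 lay under its 2.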
